A study of Mus musculus with 12 samples.

Results

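The genes described here are Kit, Flt3, Nras, Ptpn11, Nf1, Wt1, Plag1, Plagl2 and Myc, mouse genes of receptor kinases, the RAS pathway and transcription factors that are known to cooperate with the leukemia fusion gene Cbfb-MYH11. They were chosen by name from that knowledge. All 9 are among the 25078 genes of the deposited tables, and 8 passed the filter on low counts that left 14599 genes for testing. Wt1 did not pass, and its counts are given without a test. RNA was sequenced from LSK cells (Lin-Sca1+ckit+), the bone marrow fraction that holds mouse stem cells and multipotent progenitors. The cells came from wild-type mice, called WT, and from mice at the preleukemic stage that carry Cbfb-MYH11, called CM. Sorted cells received 3.5 Gy of ionising radiation outside the animal (IR) or went through the incubation alone (NIR), and all were harvested 24 h later. This gave the groups WT NIR, WT IR, CM NIR and CM IR with 3 libraries each, and each of the 6 animals supplied 1 NIR and 1 IR library. The library names mark WT animals 1 and 3 as C, WT animal 2 as WT and the CM animals as CHW, without an explanation. No source used here gives the strain or age of the mice, or the promoter or recombinase behind the fusion.

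The inversion of human chromosome inv(16) joins the gene of core binding factor beta to a smooth muscle myosin gene, and the fusion protein interferes with RUNX transcription factors in blood stem and progenitor cells. The fusion holds back differentiation, and leukemia follows only when further lesions are acquired, which makes its partners a standard subject of work on this disease. Those partners commonly switch on growth factor receptors (Kit, Flt3) and the RAS pathway below them (Nras, Ptpn11, Nf1), or alter transcription factors (Wt1, Plag1, Plagl2, Myc). The values below are RNA levels, and mutations were not looked for.

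In the mm10 coordinates of the deposited tables, 1 span per gene, Kit lies at chr5:75574987-75656721 on the plus strand and Flt3 at chr5:147330742-147400489 on the minus strand. Nras lies at chr3:103058285-103067914 (plus), Ptpn11 at chr5:121130533-121191397 (minus) and Nf1 at chr11:79339892-79581609 (plus). Wt1 lies at chr2:105126529-105173614 (plus), Plag1 at chr4:3901158-3938405 (minus), Plagl2 at chr2:153227769-153241358 (minus) and Myc at chr15:61985341-61990361 (plus). RefSeq promoters (GRCm38.p6) were matched for 5 of the 9 genes: Kit, Flt3, Nras, Ptpn11 and Nf1. The 250 bases before the start are printed for 3 of them: Nras (chr3:103058035-103058284, plus strand), Nf1 (chr11:79339642-79339891, plus strand) and Flt3 (chr5:147400490-147400739, minus strand). Nras was lower after irradiation in all 6 animals, and Nf1 and Flt3 had the smallest p-values of the 8 tested genes between CM and WT without irradiation. Each is read 5′ to 3′ on the strand of its gene. Capitals mark the only match found in it to 1 of 3 searched motifs.
Nras: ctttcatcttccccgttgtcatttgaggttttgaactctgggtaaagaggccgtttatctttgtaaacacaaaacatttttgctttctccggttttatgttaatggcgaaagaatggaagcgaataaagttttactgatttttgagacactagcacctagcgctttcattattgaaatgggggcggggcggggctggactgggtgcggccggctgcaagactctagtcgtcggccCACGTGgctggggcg
Nf1: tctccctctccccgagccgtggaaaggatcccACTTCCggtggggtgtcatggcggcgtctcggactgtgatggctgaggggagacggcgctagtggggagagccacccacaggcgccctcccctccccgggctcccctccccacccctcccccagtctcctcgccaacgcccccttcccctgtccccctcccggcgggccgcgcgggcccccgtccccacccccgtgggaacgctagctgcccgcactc
Flt3: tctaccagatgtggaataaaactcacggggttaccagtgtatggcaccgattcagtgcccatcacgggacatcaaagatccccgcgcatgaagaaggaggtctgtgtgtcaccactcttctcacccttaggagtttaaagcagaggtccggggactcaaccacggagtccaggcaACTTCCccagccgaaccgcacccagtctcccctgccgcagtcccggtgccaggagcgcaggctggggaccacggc

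The motifs searched, on both strands, were CACGTG (the E-box bound by MYC with MAX), TGTGGT (core binding factor) and GGAAGT (ETS factors), which do not overlap each other in these windows. The Nras window holds CACGTG with its first base 15 bases before the start, a motif found in 6.02% of 32851 RefSeq promoters of the same length. The Flt3 and Nf1 windows each hold GGAAGT on the opposite strand, written ACTTCC above, 75 and 218 bases before the start, beside 19.7% of promoters. TGTGGT is in 0 of the 5 windows and in 14.0% of promoters. These matches describe letters only.

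Total gene counts ran from 68.5 to 110.8 M per library. Sca1 RNA (Ly6a) was present in every library at 42.0 to 457 CPM (the count scaled by the library's TMM-adjusted total), and Kit, whose protein is part of the sort gate, at 148 to 284 CPM. Of the lineage antigens, Cd3e, Ms4a1 and Ly6g stayed below 0.4 CPM, whereas Itgam RNA stood at 118 to 588 CPM. Libraries were unlike each other within CM, and within WT too. The mean level of 10 stem cell genes, in log2 units around their mean over all libraries, was -1.48 and -1.52 in both libraries of CM animal 1, -1.52 in the NIR library of CM animal 3, and 1.18 and 0.88 in CM animal 2. In WT NIR animals 1, 2 and 3 the level of the stem cell genes was -0.20, 0.57 and 0.49. On the same scale, 8 erythroid genes stood at 1.88, -0.79 and -0.16 in these WT libraries. The values of 8 macrophage genes there were 1.005, -0.875 and -0.96. The IR library of CM animal 3 stands apart from its own NIR partner. Over the 237 genes called between CM and WT without irradiation, it was closer to the WT NIR mean at 44.7%, against 0 to 7.17% in the other CM libraries and 96.2 to 100% in the WT libraries.

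The levels of the 9 genes spanned several orders of magnitude. On the deposited RPKM scale, which divides by exon length and so allows genes to be compared, the means over 12 libraries were 154 for Myc, 49.6 for Nras, 41.8 for Kit, 38.5 for Ptpn11, 19.8 for Plagl2, 17.1 for Flt3, 5.14 for Nf1, 0.749 for Plag1 and 0.0214 for Wt1. Myc, a transcription factor that drives growth and division, was the highest of the 9 in every library, at 96.3 to 219.8 RPKM. The order of the next genes was not firm. Nras exceeded Kit in 10 of 12 libraries and Kit exceeded Ptpn11 in 7 of 12, with overlapping ranges. Plagl2 exceeded Flt3 in 7 of 12. Flt3 ranged from 5.51 to 31.2 RPKM, overlapped the range of Nf1 (3.79 to 6.69) and was still above Nf1 within each library. Plag1 was above Wt1 in every library, with no overlap.

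**Figure D1:**
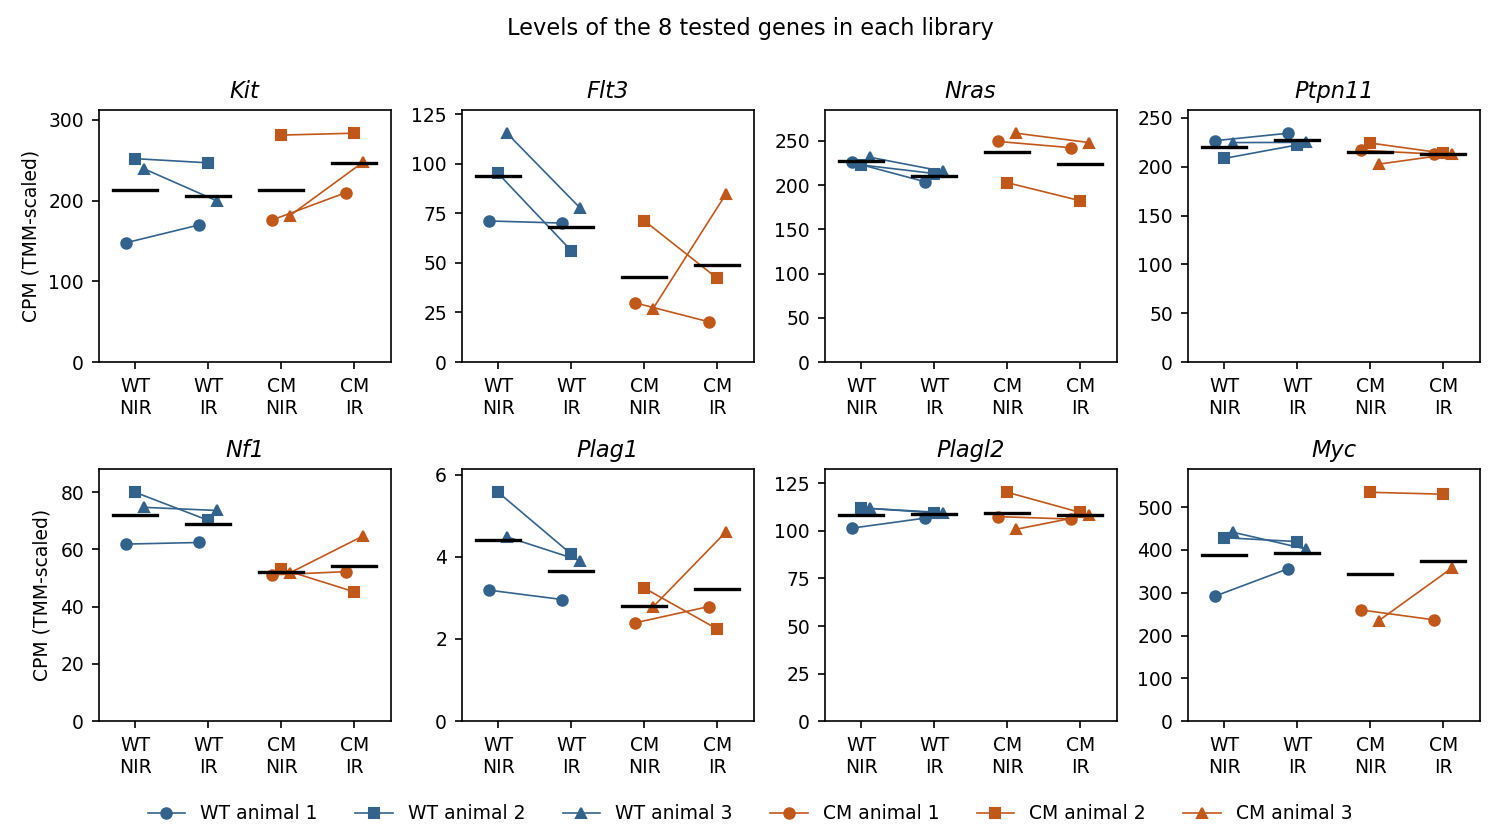
Level of the 8 tested genes in each library, in TMM-scaled CPM on linear axes that start at 0, by group. Points joined by a line are the NIR and IR libraries of 1 animal, black bars are group means of 3 libraries, and the panels show Flt3, Nf1 and Plag1 lower in most CM libraries than in WT while Nras, Ptpn11 and Plagl2 keep to narrow ranges.

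None of the 8 tested genes passed an adjusted p of 0.05 in any of 6 comparisons by edgeR's quasi-likelihood test, adjusted over all genes. The background was low as well. IR against NIR called 0.116% of tested genes in WT, 0.00685% in CM and 0.308% when averaged over both genotypes. CM against WT called 1.62% without irradiation and 0.664% after it, and the difference of the IR responses between genotypes called 0%. For that difference, an unadjusted p under 0.05 was reached by 49 genes with a positive and 57 with a negative value, and 0 of them were members. At an unadjusted p under 0.05 stood Nf1 and Flt3 in CM against WT without irradiation and Nf1 after it, and no member in the other 4 comparisons. Of all 14599 tested genes, 1250 higher and 949 lower ones stood there without irradiation, and 1049 and 677 after it. DESeq2 called 1 member, Nf1 without irradiation, and limma-voom called 0. The replicate block, in which NIR and IR are compared within animals, raised the number of genes called after irradiation from 17 to 163 in WT and from 45 to 302 on average, and still called 0 members. In RNA from sorted populations, fewer cells of a type and less RNA per cell cannot be told apart. The main edgeR fit treated the 12 libraries as independent, although each animal supplied 1 NIR and 1 IR library. In limma-voom the consensus correlation of an animal's libraries was 0.723. The p-values, SE and intervals of the main fit thus do not measure the spread between animals alone. With the animal as a random block, limma-voom called 5 genes for CM against WT without irradiation, against 218 without the block. After irradiation it called 13, against 156.

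The median log2 fold change of the 8 genes was -0.11 for CM against WT without irradiation, beside 0.02 over all tested genes, and -0.08 after irradiation, beside 0.02. For IR against NIR it was -0.06 in WT, beside -0.01 over all genes, and 0.09 in CM, beside -0.0012.

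**Figure D2:**
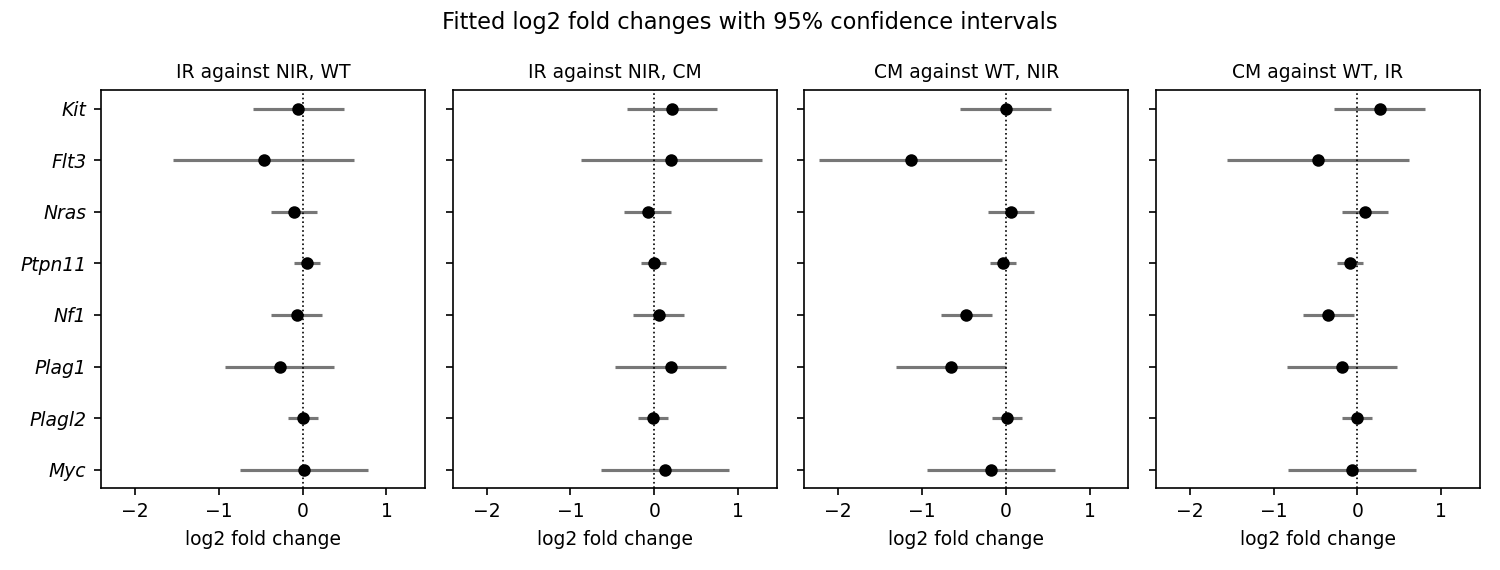
Fitted log2 fold changes of the 8 tested genes (points) with 95% confidence intervals (lines) from edgeR's quasi-likelihood fit, 1 panel per comparison. The intervals of Nf1 lie below 0 in both CM against WT panels, that of Flt3 lies below 0 without irradiation, and those of Ptpn11 and Plagl2 are the narrowest.

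Kit encodes the receptor for stem cell factor, which keeps stem cells alive and dividing. Its level was 148, 252 and 239 CPM in WT NIR animals 1, 2 and 3, and 170.0, 247 and 199.6 CPM in WT IR. In CM it was 176, 281 and 182 CPM without irradiation and 209.8, 284 and 248 CPM with it. All groups overlapped, and animal 1 was the lowest library of each group. Means were 213 ± 56.8 and 205 ± 38.7 CPM in WT NIR and WT IR, and 213 ± 59.1 and 247 ± 36.9 CPM in CM NIR and CM IR (SD, n = 3). CM against WT gave a log2 fold change of -0.0011 ± 0.24 (SE) without irradiation, with a 95% interval from -0.54 to 0.54, so differences up to that size were within the error. Because cells were gated on the Kit protein, these levels describe cells already chosen for it.

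Flt3 encodes the receptor for FLT3 ligand, carried by multipotent and lymphoid-primed progenitors. Its level was 71.1, 95.1 and 115 CPM in WT NIR and 70.1, 56.2 and 77.8 CPM in WT IR. The CM libraries held 29.8, 71.3 and 26.9 CPM without irradiation and 20.3, 42.2 and 84.8 CPM with it. CM NIR animals 1 and 3 were far below every WT NIR library, while CM NIR animal 2 was level with WT animal 1. The CM IR libraries were spread over 4.17-fold from the lowest to the highest, the widest spread of any tested gene and group among the members. Means were 93.9 ± 22.2 in WT NIR, 68.003 ± 10.9 in WT IR, 42.7 ± 24.8 in CM NIR and 49.1 ± 32.8 CPM in CM IR (SD, n = 3).

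Between genotypes without irradiation, Flt3 had a log2 fold change of -1.14 ± 0.49 (SE), with an edgeR adjusted p of 0.312, which does not pass. Without CM animal 2 the value was -1.73, with an adjusted p of 0.05002, just outside the threshold, and without CM animal 3 it was -0.89 with an adjusted p of 0.456. Over all alternatives the adjusted p ran from 0.05002 to 0.824. That fit called 16.9% of all genes, so a value near the threshold was common in it. After irradiation the difference was -0.47 ± 0.49 (adjusted p = 0.774), and single libraries moved it: it was -1.12 without the IR library of CM animal 3 (adjusted p = 0.292) and -0.10 without that of CM animal 1 (adjusted p = 0.999). Stem cell genes also differed between these libraries. In CM NIR the mean level of the stem cell genes ran from -1.52 to 1.18, with its high value in animal 2, and in WT NIR from -0.20 to 0.57. Of the 10 stem cell genes 0 were called, and none of them was at 0. Their part in the Flt3 result was not tested.

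Irradiated cells had less Flt3 RNA than their unirradiated partners in 5 of 6 animals. The log2 changes were -0.02, -0.76 and -0.57 in WT animals 1, 2 and 3, -0.55 and -0.76 in CM animals 1 and 2, and 1.66 in CM animal 3. The last value sets the direction in CM: the fitted change was 0.20 ± 0.49 with all animals and -0.68 without CM animal 3. With the replicate block and all animals, the mean change over both genotypes was -0.18 ± 0.32 (edgeR adjusted p = 0.819). With the replicate block and without CM animal 3, a choice made after seeing the data, Flt3 fell by 0.55 ± 0.10 on the log2 scale (edgeR adjusted p = 0.0461), the only call of a member after irradiation among the settings tried. That fit called 3.31% of tested genes. Within WT alone the same fit gave -0.45 ± 0.13 and an adjusted p of 0.125.

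Lymphoid-primed genes moved with Flt3 only in part after irradiation. The mean level of the 9 tested ones was 0.11, 0.67 and 0.67 in WT NIR and -0.45, -0.52 and -0.24 in WT IR. WT animal 1 showed this fall although its Flt3 changed by only -0.02. In CM animal 1 the list level went from -0.18 to -0.34 and in CM animal 2 from 0.02 to -0.31. In CM animal 3, where Flt3 was higher after irradiation, it was -0.08 without and 0.65 with it. Of the 9 genes, 3 had a positive fitted change in WT. Notch1 was higher in all 3 WT animals, by 0.82, 0.34 and 0.25 log2 units. Dntt, the terminal transferase of early lymphoid cells, named after its values were seen, differed by -1.60, -3.37 and -4.03 log2 units in the WT animals, by -1.04 and -1.68 in CM animals 1 and 2, and by 2.03 in CM animal 3. Without the replicate block 0 of the 9 genes were called after irradiation in WT, and with it 1 was, the chemokine receptor Ccr9, which fell (-2.66 ± 0.37, adjusted p = 0.0290). Their part in the Flt3 values was not tested.

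Of 9 other tested receptor and ligand genes, 1 was called. Csf3r, the receptor for granulocyte colony-stimulating factor, rose in CM against WT without irradiation by 1.07 ± 0.21 (edgeR adjusted p = 0.0376). It stood at 90.8 to 106 CPM in WT NIR and at 162 to 260.1 CPM in CM NIR. The call was kept in 6 of 18 fits that left out a library or an animal. Beside it, Elane, a neutrophil protease of myeloid progenitors, fell in the same comparison by 1.39 ± 0.29 (adjusted p = 0.0434). Elane was the 1 gene called of 10 tested myeloid progenitor genes, and that list was split. Of the 10, 5 had a positive log2 fold change, and the median was -0.17. Like Elane, the mature neutrophil genes S100a8 and S100a9 fell, with adjusted p of 0.0376 and 0.0435. With the animal as a random replicate block, limma-voom called 5 genes in this comparison and none of these 4, with adjusted p of 0.0703 for Csf3r, 0.0775 for Elane, 0.117 for S100a8 and 0.142 for S100a9. The ligand genes did not pass in any comparison. Kitl, stem cell factor, stood at only 0.153 to 0.564 CPM. Flt3l was at 4.78 to 8.06 CPM in WT NIR and at 8.02 to 11.2 CPM in CM NIR, a log2 fold change of 0.65 ± 0.23 with an adjusted p of 0.200.

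Nras is the GTPase that passes the signal of these receptors on to RAF and ERK. Its level was 226, 223 and 232 CPM in WT NIR and 204, 213 and 216 CPM in WT IR, so the WT groups did not overlap. CM values were 249, 203 and 259 CPM without irradiation and 242, 182 and 248 CPM with it. In CM the groups overlapped, because animal 2 was low in both, yet each CM animal was lower after irradiation too. The log2 changes were -0.15, -0.06 and -0.10 in WT and -0.04, -0.15 and -0.06 in CM. Nras was the only one of the 8 members lower in all 6 animals, beside 6.58% of all tested genes, and the only one with WT IR wholly below WT NIR, beside 6.63%.

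The change in Nras was small and did not pass. Averaged over both genotypes it was -0.09 ± 0.09 (SE, edgeR adjusted p = 0.9999) with a 95% interval from -0.29 to 0.10. With the replicate block it was -0.09 ± 0.03, with an unadjusted p of 0.0184 and an adjusted p of 0.186. CM against WT was 0.06 ± 0.13 without irradiation.

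Hras, a close relative of Nras, did not pass either. After irradiation it was higher in 5 of 6 animals, with CM animal 3 as the exception, and the fitted mean change was 0.13 ± 0.17.

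Ptpn11 encodes SHP2, the phosphatase that couples receptors to RAS. Its level was 227, 209 and 225 CPM in WT NIR and 234, 222 and 225 CPM in WT IR. CM levels were 217, 224 and 203 CPM without irradiation and 213, 214 and 213 CPM with it. Its means were 220.0 ± 9.98, 227 ± 6.33, 215 ± 11.0 and 213 ± 0.489 CPM (SD, n = 3) in WT NIR, WT IR, CM NIR and CM IR. CM IR lay wholly below WT IR, as did 8.36% of tested genes, and the difference was -0.09 ± 0.07 with an edgeR adjusted p of 0.688. The 95% interval of CM against WT without irradiation ran from -0.19 to 0.12 on the log2 scale.

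Nf1 encodes neurofibromin, a GTPase activator that switches RAS off and whose loss activates the pathway. Its level was 61.8, 79.9 and 74.7 CPM in WT NIR and 62.4, 70.1 and 73.6 CPM in WT IR. In CM it was 51.1, 53.2 and 51.8 CPM without irradiation and 52.2, 45.2 and 64.7 CPM with it. Every CM NIR library was below every WT NIR library, as was the case for 7.84% of tested genes. The 3 CM NIR values were within 1.04-fold of each other. The mean level of the stem cell genes in CM NIR animals 1, 2 and 3 was -1.48, 1.18 and -1.52. In WT NIR it was -0.20, 0.57 and 0.49, with animal 1 lowest both in this level and in Nf1. The part of these genes in the Nf1 values was not tested. After irradiation CM animal 3 reached into the WT range and the groups overlapped.

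Nf1 came closest to a call among the members. CM against WT without irradiation was -0.47 ± 0.14 (SE), with a 95% interval from -0.78 to -0.16, an unadjusted p of 0.00632 and an edgeR adjusted p of 0.131. DESeq2 gave -0.48 ± 0.15 and called it (adjusted p = 0.0312), in a comparison where it called 6.32% of all genes. Without CM animal 2 edgeR also called it, at -0.49 with an adjusted p of 0.0433, in a fit that called 16.9% of all genes. With a term for the 2 series of library numbers the value was -0.38 ± 0.10 (adjusted p = 0.105). Over all alternatives the adjusted p ran from 0.0312 to 0.572. CM was below WT within each series: 51.1 and 53.2 against 61.8 CPM, and 51.8 against 79.9 and 74.7 CPM. After irradiation the difference was -0.35 ± 0.14, with an adjusted p of 0.337, and without CM animal 3 it was -0.48 with an adjusted p of 0.139. Irradiation itself moved Nf1 by -0.07 ± 0.14 in WT and 0.05 ± 0.14 in CM.

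Levels of mast cell and neutrophil genes stand beside the Nf1 values. The mean level of 10 mast cell and basophil genes ran from -1.40 to -0.12 in WT NIR and from -0.69 to 1.5 in CM NIR, with 1 of 10 called, the tryptase gene Tpsb2, which rose by 3.93 ± 0.62 (adjusted p = 0.0201). The mast cell levels of the genotypes overlapped, with CM animal 2 below WT animal 1, and with a random replicate block in limma-voom Tpsb2 did not pass (adjusted p = 0.0999). The mean level of 7 mature neutrophil genes was 0.81 to 2.20 in WT NIR and -2.22 to -1.40 in CM NIR, with 2 of 7 called lower, and these levels did not overlap. Of the 7, 1 gene went the other way. Mmp8 was at 108, 139 and 95.9 CPM in WT NIR and at 636, 99.0 and 1427 CPM in CM NIR. The part of these 2 lists in the Nf1 values was not tested.

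Evi2a, Omg and Evi2b lie within the Nf1 span on the opposite strand. The strand setting of the counting is not stated in any source used here, so the count of Nf1 is uncertain to the extent that reads of these genes were not told apart from it. Evi2a was well expressed, at 3418 counts per library on average, and varied from 13.6 to 79.0 CPM. Its difference between genotypes without irradiation was 0.72 ± 0.63, opposite in sign to that of Nf1. Omg stood at 0.282 to 0.470 CPM and Evi2b at 0 to 2 counts.

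Few genes of the surrounding pathway passed. Of 12 other RAS and exchange factor genes, 11 receptor adaptors, 12 RAS brakes and 10 RAF, MEK and ERK genes, 0 were called in all 6 comparisons. At an unadjusted p under 0.05 stood 3 of 12, 2 of 11, 1 of 12 and 1 of 10 in CM against WT without irradiation. Of all 14599 tested genes, 1250 higher and 949 lower ones did so. Spred1, a RAS brake that recruits neurofibromin, was lower after irradiation in all 6 animals, as were 6.58% of all tested genes. Its changes lay between -0.17 and -0.04 log2 units, with a fitted mean of -0.10 ± 0.11. Shoc2 and Map2k1 were also lower in all 6, with mean changes within animals of -0.12 and -0.20. With the replicate block 1 of the genes listed here passed: Ksr2, a scaffold of the RAF cascade, rose on average by 1.30 ± 0.20 (edgeR adjusted p = 0.0373), from a low level of 0.343 to 2.29 CPM without irradiation. Without the block its adjusted p was 0.608.

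Of 16 genes that ERK signalling is known to switch on, 12 had a positive log2 fold change in CM against WT without irradiation. Their median was 0.23, beside 0.02 over all tested genes. After irradiation 13 of 16 were positive, with a median of 0.42 beside 0.02. At an unadjusted p under 0.05 stood 4 of 16 without and 6 of 16 after irradiation. Of all 14599 tested genes, 1250 higher and 949 lower ones stood there without irradiation, and 1049 and 677 after it. Over all tested genes, 47.4% and 47.1% had a negative log2 fold change. The mean level of the 16 genes overlapped between genotypes. It was 0.23, -0.335 and -0.34 in WT NIR and 0.03, -0.04 and 0.08 in CM NIR. With irradiation it was 0.13, -0.12 and -0.12 in WT and 0.26, 0.11 and 0.11 in CM. The 1 gene called of the 16 was lower in CM. Ccnd1, cyclin D1, fell in CM against WT without irradiation by 2.55 ± 0.46 (edgeR adjusted p = 0.0290). It stood at 42.4, 25.1 and 28.1 CPM in WT NIR and at 7.10, 3.81 and 5.45 CPM in CM NIR. This call was kept in 6 of 18 fits that left out a library or an animal and in 8 of 9 other settings, the exception being limma-voom with a random replicate block (adjusted p = 0.113). After irradiation the changes of Ccnd1 within animals ran from 0.47 to 2.01 log2 units. With the replicate block it rose on average by 1.04 ± 0.15 (edgeR adjusted p = 0.0304, and 0.371 without the block). Dusp6, an ERK phosphatase used as a readout of the pathway, did not pass, at 0.24 ± 0.15 between genotypes without irradiation and 0.06 ± 0.10 after irradiation on average.

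Wt1, a zinc finger transcription factor of kidney and some leukemias, was close to absent. Its counts were 11, 1 and 1 in WT NIR, 3, 2 and 3 in WT IR, 9, 11 and 4 in CM NIR and 10, 7 and 2 in CM IR. A count of 0 would allow up to 3 counts, 7 of 12 libraries held at most 4, and 11 of the 13 WT NIR counts came from animal 1. Summed over 3 libraries this was 0.0543 CPM in WT NIR (95% exact Poisson interval 0.0289 to 0.0928), 0.0273 in WT IR (0.0118 to 0.0538), 0.105 in CM NIR (0.0674 to 0.157) and 0.0754 in CM IR (0.0454 to 0.118). These intervals cover counting error only. The intervals of WT NIR and CM NIR overlapped, and so did their libraries. CM NIR (4 to 11 counts) lay above WT IR (2 to 3 counts), a pair that differs in both genotype and irradiation. Wt1os, its antisense neighbour, had 0 or 1 count per library, and 0 of 8 tested WT1 partners and targets were called.

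Plag1 and Plagl2 are related zinc finger factors, and in the mouse both were found as partners of the fusion by retroviral insertion. Plag1 was at 3.19, 5.57 and 4.48 CPM in WT NIR and 2.96, 4.07 and 3.91 CPM in WT IR. The CM libraries gave 2.39, 3.24 and 2.78 CPM without irradiation and 2.79, 2.24 and 4.61 CPM with it. CM NIR animals 1 and 3 were below every WT NIR library and animal 2 was just above the lowest. Between genotypes without irradiation the difference was -0.65 ± 0.30 (SE), with an edgeR adjusted p of 0.337, and after irradiation it was -0.18 ± 0.30, or -0.52 without CM animal 3 (adjusted p = 0.424). Chchd7, whose span starts 483 bases from Plag1 in the opposite direction, differed by -0.28 ± 0.18 without irradiation and did not pass.

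Plagl2 kept to a narrow band. It was at 101, 112 and 112 CPM in WT NIR, 107, 109.5 and 109.6 CPM in WT IR, 107, 120.3 and 101 CPM in CM NIR, and 106, 109.7 and 108 CPM in CM IR. All groups overlapped. The 95% intervals were -0.16 to 0.19 for CM against WT without irradiation, -0.18 to 0.18 for IR against NIR in WT and -0.20 to 0.16 in CM. Of 3 tested genes of the family and its targets, 0 were called. Plagl1, the third family member, stood at 0.130 to 0.476 CPM and the growth factor gene Igf2 at 0 to 0.144 CPM.

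Myc was at 292, 429 and 441 CPM in WT NIR and 356, 419.5 and 402 CPM in WT IR. CM levels were 259.7, 535 and 235 CPM without irradiation and 237, 530.3 and 358 CPM with it. All groups overlapped, and CM animal 2 was the highest of its group in both conditions. The CM spread was wide, with a mean of 343 ± 166 CPM in CM NIR against 388 ± 82.6 CPM in WT NIR (SD, n = 3). The difference was -0.18 ± 0.34 without irradiation, with a 95% interval from -0.94 to 0.59, so changes of that size were not detectable between these animals. IR against NIR was 0.02 ± 0.34 in WT and 0.13 ± 0.34 in CM. Without CM animal 3 the blocked change in CM was -0.06.

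Few genes of the MYC network passed a test. Of 14 network genes and 20 MYC target genes, 0 were called in all 6 comparisons. Between genotypes without irradiation, 2 of 14 and 2 of 20 had an unadjusted p under 0.05, beside 1250 higher and 949 lower of all 14599 tested genes. The targets had a median log2 fold change of -0.05 in that comparison and 0.0071 for IR against NIR in WT. Max, the dimerisation partner of MYC, kept to 115 to 140.3 CPM. With the replicate block Mxd4, a MAX partner that opposes MYC, rose after irradiation by 0.79 ± 0.09 in WT (edgeR adjusted p = 0.0196) and by 0.55 ± 0.07 on average (adjusted p = 0.0177). Its changes within animals ran from 0.23 to 0.99 log2 units, and without the block its average change had an adjusted p of 0.366. Mycn, a relative of Myc, was at 26.4 to 50.9 CPM in WT and at 7.10, 23.0 and 4.87 CPM in CM NIR, and it went from 4.87 to 38.5 CPM in CM animal 3. Its difference of -1.82 ± 0.69 without irradiation had an adjusted p of 0.244.

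Pvt1, a noncoding RNA gene 47.6 kb beyond Myc on the same strand, rose after irradiation averaged over both genotypes, by 0.97 ± 0.16 (edgeR adjusted p = 0.0463). It was at 5.78, 7.26 and 7.79 CPM in WT NIR and 17.0, 19.6 and 22.0 CPM in WT IR. In CM it was 9.99, 7.71 and 13.6 CPM without irradiation and 12.7, 17.9 and 11.99 CPM with it. The WT groups were far apart and the CM groups overlapped, with log2 changes of 1.55, 1.43 and 1.495 in WT and 0.35, 1.21 and -0.18 in CM. The difference of the responses was -1.05 ± 0.33 with an adjusted p of 0.99999. The call held in 9 of 10 other settings, with DESeq2's size factors the exception (adjusted p = 0.0533), and in 2 of 18 fits that left out a library or an animal, and over all of these the adjusted p ran from 1.83e-05 to 0.464. Myc itself was higher in 2 of the same 6 animals.

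**Figure D3:**
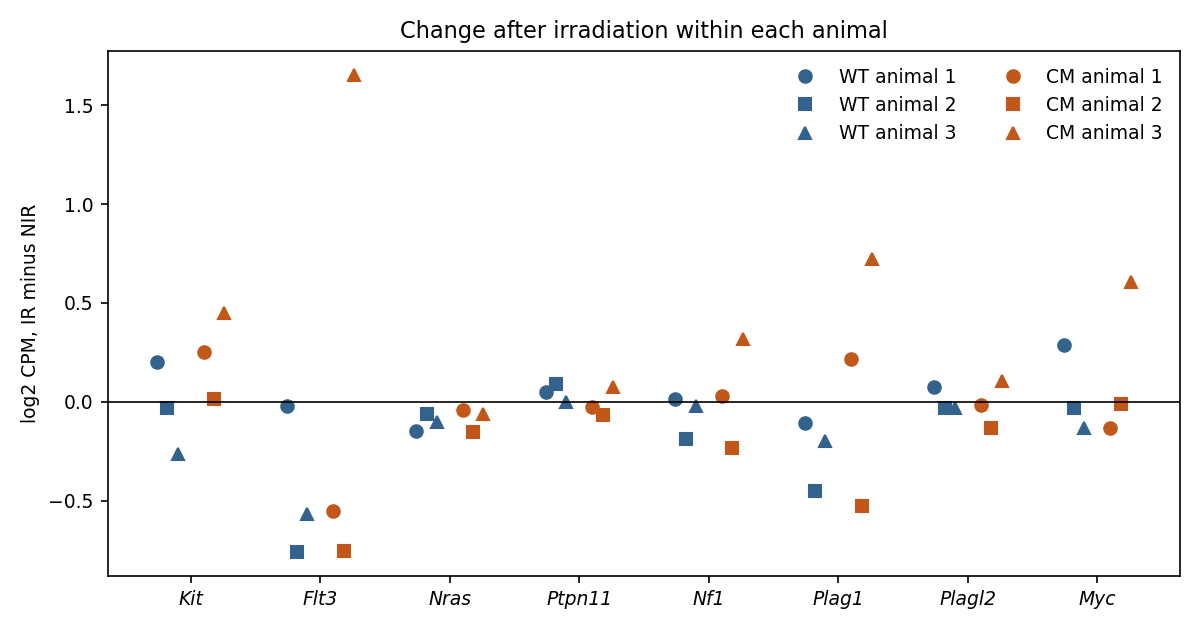
Change of each of the 8 tested genes after irradiation within each animal, as log2 CPM of IR minus NIR. Nras lies below 0 in 6 of 6 animals, Flt3 in 5 of 6, and CM animal 3 (triangle) is the highest point for Kit, Flt3, Nf1, Plag1, Plagl2 and Myc.

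Within animals, CM animal 3 had the highest change of the 6 for Kit (0.45), Flt3 (1.66), Nf1 (0.32), Plag1 (0.72), Plagl2 (0.10) and Myc (0.61). Ptpn11 and Nras were the exceptions, at 0.07 and -0.06. In the replicate-block fit without that animal, the CM changes of Flt3, Nf1, Plag1 and Myc turned from positive to negative, at -0.65, -0.09, -0.15 and -0.06. The direction of these 4 genes after irradiation in CM thus rests on 1 animal. Over all tested genes, the deviations of an animal's NIR and IR libraries from their group means had a correlation of 0.125 in CM animal 3 and of 0.412 to 0.844 in the other 5 animals.

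Across the 12 libraries the members fell into sets that varied together, described by Pearson correlations of log2 CPM over libraries that share animals. Nf1 followed Plag1 (r = 0.91), and Flt3 followed both (0.75 and 0.75). Kit, Plagl2 and Myc formed another set, with 0.79 between Plagl2 and Myc, 0.77 between Kit and Plagl2 and 0.74 between Kit and Myc. Nras ran against Myc (-0.78). Ptpn11 followed no other member closely, with 0.48 to Flt3 as its highest value.

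**Figure D4:**
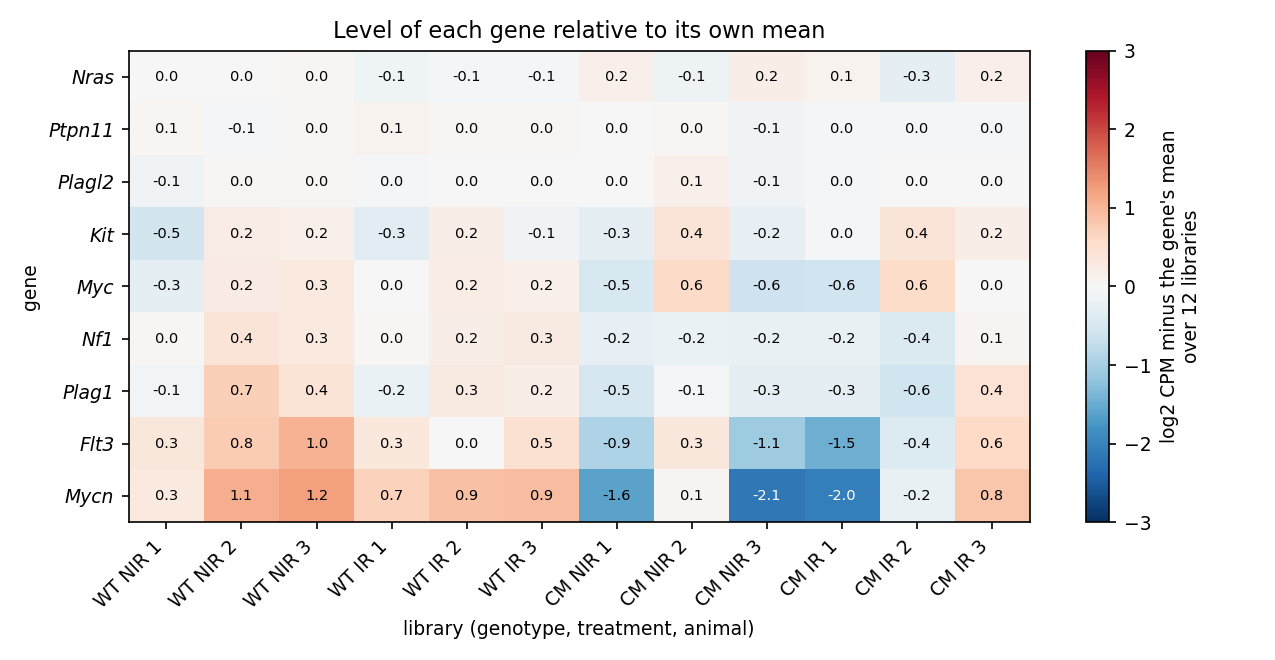
Level of the 8 tested genes and of Mycn in each of the 12 libraries, as log2 CPM minus the gene's own mean, from blue (low) to red (high). Flt3 follows Mycn in being low in both libraries of CM animal 1 and in the NIR library of CM animal 3, with Flt3 at -0.92, -1.47 and -1.06, while Nras, Ptpn11 and Plagl2 stay close to 0.

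The genes with the most similar patterns over the same 12 libraries were Itga6 for Kit (r = 0.958), Ppm1l, Pdss2 and Mycn for Flt3 (0.960, 0.960 and 0.947), and Pja2, Itgb1 and Sh3glb1 for Nras (0.977, 0.964 and 0.962). Ptpn11 was closest to BC024978, Ppfia1 and Dusp5 (0.916, 0.871 and 0.858) and Nf1 to Atl3, Rab11fip2 and Zfp518a (0.969, 0.964 and 0.958). Plag1 was closest to Smurf2, Fem1b and Iqgap2 (0.939, 0.930 and 0.929), Plagl2 to Chd4, Zfp592 and Rnf216 (0.964, 0.956 and 0.933) and Myc to Muc13, Adgra3 and Dhx33 (0.996, 0.989 and 0.989). For Kit, 9330182L06Rik and Nos1ap came next (0.925 and 0.916). These are the highest of a gene's correlations with all others of at least 5 CPM, over libraries that share animals, so high values were to be found for any gene.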

How the data were processed

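The submitters deposited 2 gene tables of the same 12 libraries. The deposited count table holds whole-number read counts per gene and was used for all tests. The deposited RPKM table, with counts divided by exon length and library size by the authors, was used to order genes and in alternatives, and the exon length column that the authors deposited was printed nowhere. Per the labels' protocols, ribosomal RNA was removed from total RNA before stranded library preparation. The submitters' processing notes name build mm10 and list HTSeq 0.6.1p1, TopHat2 and bcl2fastq 2.18.0.12, without their roles. No source used here gives the strand setting or the annotation release.

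Genes were filtered with filterByExpr (minimum count 10, total 15), scaled by TMM and tested with edgeR 4.0.16 (R 4.3.3) by the quasi-likelihood test on 4 group means from all 12 libraries, with Benjamini-Hochberg adjustment over 14599 genes and a threshold of 0.05. SE and 95% intervals come from that fit. Alternatives were an animal term, DESeq2 1.42.0 and its size factors, limma 3.58.1 with voom or on log2(RPKM + 1) and log2(RPKM + 0.1), no filter, a term for the 2 series of library numbers, fewer libraries, and each library or animal left out. NIR and IR libraries carry the animal's number in the labels and were paired by it. Tests were run on simulated counts drawn independently for each library. Those counts held no animal effect, so they cannot check the test for libraries that share an animal.

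List levels are means of log2 CPM (prior count 2) around each gene's mean. The 22 gene lists, the members and the rule for named genes were chosen with earlier results of these data known: the members, fixed relatives and neighbours, list genes past 5%, and for each member the 3 genes of at least 5 CPM with the highest correlation. Some of these genes are not reported here. Promoters come from RefSeq, GRCm38.p6.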

Additional observations from a re-analysis of the deposited data

How the results depend on the processing

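Across 864 member values from fits that left out a library or an animal, 99 changed sign and 1 passed the threshold. Of 480 values under other settings 18 changed sign and 2 passed. No member value that changed sign had been called, and the cause was not tested. With libraries left out, the log2 fold changes that changed sign ranged as follows. IR against NIR in WT ran from -0.26 to 0.087 for Kit, -0.17 to 0.010 for Nf1, -0.044 to 0.027 for Plagl2 and -0.15 to 0.12 for Myc. IR against NIR in CM ran from -0.68 to 0.89 for Flt3, -0.18 to 0.049 for Nras, -0.043 to 0.024 for Ptpn11, -0.10 to 0.18 for Nf1, -0.16 to 0.51 for Plag1, -0.070 to 0.054 for Plagl2 and -0.21 to 0.60 for Myc. CM against WT without irradiation ran from -0.25 to 0.14 for Kit, -0.0015 to 0.16 for Nras, -0.069 to 0.0065 for Ptpn11, -0.058 to 0.073 for Plagl2 and -0.65 to 0.036 for Myc. After irradiation it ran from -0.54 to 0.020 for Plag1, -0.029 to 0.0088 for Plagl2 and -0.40 to 0.18 for Myc. The difference of the responses ran from -0.22 to 1.35 for Flt3, -0.075 to 0.15 for Nras, -0.026 to 0.25 for Nf1, -0.073 to 0.051 for Plagl2 and -0.23 to 0.58 for Myc. The average IR response ran from -0.022 to 0.21 for Kit, -0.57 to 0.21 for Flt3, -0.084 to 0.056 for Nf1, -0.22 to 0.12 for Plag1, -0.034 to 0.028 for Plagl2 and -0.094 to 0.31 for Myc. With the replicate block and without CM animal 3, a setting chosen after seeing the data, IR against NIR in CM was -0.65 for Flt3, -0.092 for Nf1, -0.15 for Plag1 and -0.063 for Myc. The difference of the responses was then -0.19 for Flt3, -0.027 for Nf1 and -0.10 for Myc, the average response of Myc was -0.011, and 1 member was called on average. Kit between unirradiated genotypes was 0.0025 with limma-voom, 0.0027 with limma-voom and a random replicate block, and 0.096 with the library number term. Plagl2 in WT was -0.000964 with DESeq2 size factors, -0.00108 with DESeq2 and -0.00305 from the WT libraries alone, and its average response on log2(RPKM + 1) and log2(RPKM + 0.1) was 0.000946 and 0.00111. Ptpn11 in CM on those scales was 0.000990 and 0.00104. The number of genes called at an adjusted p of 0.05 moved as follows, where the value in brackets is the one by edgeR given above. For IR against NIR in WT (17 genes) they were 163 with the replicate block, 516 with the block and without CM animal 3, 438 with limma-voom and a random block, 140 with DESeq2, 31 with limma-voom, 92 from the WT libraries alone, 52 and 40 on the 2 RPKM scales, and 1 to 101 with libraries left out. In CM (1 gene) they were 0 with the replicate block, with or without CM animal 3, and from the CM libraries alone, 4 with limma-voom and a random block, 18 with DESeq2, and 0 to 3 with libraries left out. On average (45 genes) they were 302 with the block, 490 with the block and without CM animal 3, 693 with limma-voom and a random block, 169 with DESeq2, and 1 to 73 with libraries left out. For CM against WT without irradiation (237 genes) they were 5 with limma-voom and a random block, 922 with DESeq2, 78 from the NIR libraries alone, and 2 to 2497 with libraries left out, with 0 to 1 members called, and 1 member with DESeq2. After irradiation (97 genes) they were 13 with limma-voom and a random block, 652 with DESeq2, 156 with limma-voom, 14 with the library number term, 0 from the IR libraries alone, 162 on log2(RPKM + 1), and 1 to 1000 with libraries left out. The difference of the responses gave 1 gene on log2(RPKM + 1). The share of calls that were higher in CM was 57.8% without and 58.8% after irradiation, and 43.7% and 26.5% on log2(RPKM + 1). Fits with fewer animals also filter and test a different number of genes. The replicate block alone changed no member's call; for CM against WT it could be fitted only as a random term in limma-voom, and the libraries of 1 comparison give no difference or average of responses. Depth limits only Wt1; for the other 8 genes the spread between 3 animals per group limits precision.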
